A study of Mus musculus with 2 samples.

Results

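The cytosolic DNA and RNA sensors described here are 10 genes, taken by symbol from the feature lists of both libraries: the DNA and Z-form nucleic acid sensors Cgas, Aim2, Ifi204 and Zbp1, the RNA sensors Ddx58, Ifih1 and Dhx58, the adaptors Sting1 and Mavs, and the exonuclease Trex1. They are 10 of 55357 features, and all 10 symbols were found. Levels were read in tumour cells, macrophages, dendritic cells, T cells and fibroblasts, each class gated on its own marker genes. RM-1 is a prostate cancer line of the mouse, injected subcutaneously here into C57BL/6 hosts (genotype WT), and tumours collected 10 days after treatment were profiled by 3′ droplet single-cell RNA sequencing. The vehicle group and the RP-6306 group each hold 1 library, and RP-6306 is an inhibitor of PKMYT1, the kinase that holds CDK1 inactive before mitosis. RM-1 tumours come from 1 cell line, and the labels leave unclear how many mice stand behind each library.

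Nucleic acid in the cytosol is read as a sign of infection or of damaged chromosomes. The enzyme cGAS, made from Cgas, binds double-stranded DNA and makes the messenger cGAMP, which switches on STING (Sting1). RIG-I (Ddx58) and MDA5 (Ifih1) bind double-stranded RNA and signal through MAVS on mitochondria, and both routes lead to type I interferon. Interferon in turn raises many sensor genes, among them Ddx58, Ifih1, Dhx58, Zbp1 and Ifi204, so their transcripts are read both as detectors and as interferon targets.

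The vehicle library held 9686 barcodes with 100815022 UMIs (unique molecular identifiers, 1 per captured transcript molecule), and the RP-6306 library 10512 barcodes with 106465655 UMIs. After filtering, 9540 vehicle and 10308 RP-6306 cells were kept. The gates gave 7291 vehicle and 7573 RP-6306 tumour cells, 299 and 325 macrophages, 20 and 27 dendritic cells, 32 and 51 T cells, and 59 and 68 fibroblasts, in that order, while 1708 and 2106 cells met no gate. Median depth was 10123 and 10127 UMIs in tumour cells, 4936 and 4414 in macrophages and 1273.5 and 1268 in T cells. In macrophages the 11 macrophage markers summed to 14115 CPM in the vehicle library and 14629 in the RP-6306 library (CPM, UMIs per 1000000 UMIs of that class and library), against 39.5 and 38.2 CPM in tumour cells. The 5 epithelial markers used for the tumour gate summed to 1862 CPM in vehicle and 1592 CPM in RP-6306 tumour cells. Dendritic cells carried neither Siglech nor Cd207, so plasmacytoid and Langerhans-type markers were at 0 there. The libraries shared 34 barcode sequences, and leaving these cells out left the numbers of sensors past 1.2-fold in tumour cells and macrophages as they were.

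Transcripts chosen to mark other cells were found in each class, and whether they leaked in or were made there was not tested. Of 6 tumour transcripts not used in the gates, macrophages held 10.8% of the tumour level in the vehicle library and 9.63% in the RP-6306 library, T cells 27.7% and 22.2%, and fibroblasts 21.2% and 26.8%. In the other direction, tumour cells held 0.221% and 0.186% of the macrophage level of 5 leukocyte transcripts. With 1 library per group no difference could be set against a spread between animals. All intervals are 2-sided 95% intervals for counting error only. The limit given for a count of 0 is the level of 3 UMIs, a 1-sided limit that lies below the upper end of the 2-sided interval. The words "higher" and "lower" compare 2 libraries, not treatments.

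In tumour cells the RNA sensors Ddx58, Ifih1 and Dhx58, together with Zbp1 and Cgas, stood higher in the RP-6306 library, while Aim2 was slightly lower and Ifi204 and the adaptors were close to level. Zbp1 and Ifih1 had the largest ratios among the 9 sensor genes with at least 20 UMIs over both libraries, and Trex1 had none. Of these 9 genes 7 had a ratio above 1, where 45.2% of the 17767 genes with at least 20 UMIs did. At least 1.2 times higher were 5 (Cgas, Zbp1, Ddx58, Ifih1 and Dhx58), where 13.9% of all such genes were. None was at least 1.2 times lower, where 13.9% of all such genes were. The median log2 ratio was 0.36, against −0.02 over all genes. In a smaller set of cells chosen with a stricter gate (2724 vehicle and 2354 RP-6306 tumour cells) the number past 1.2-fold was 3: the log2 ratio of Cgas was 0.18 instead of 0.44 and that of Dhx58 0.09 instead of 0.36. That gate asks for 1 more epithelial marker and also keeps tumour cells 1 marker further below the gate of every other class, and which of these changes lowered the number was not tested. The 5 neutrophil markers summed to 1.93 CPM in vehicle and 4.78 CPM in RP-6306 tumour cells (161 and 412 UMIs). The part of these and of the epithelial markers in the result was not tested.

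Cgas (ENSMUSG00000032344, GRCm38 chr9:78430526-78443237, minus strand) had 5.28 CPM in vehicle tumour cells (441 UMIs) and 7.18 CPM in RP-6306 tumour cells (619 UMIs). The ratio was 1.36 (1.201 to 1.54). Zbp1 (ENSMUSG00000027514, chr2:173206612-173218923, minus strand) makes a sensor of Z-form nucleic acid that can start necroptosis. Its level was 6.21 CPM in the vehicle library (518 UMIs) and 11.2 CPM in the RP-6306 library (967 UMIs), a ratio of 1.81 (1.62 to 2.01).

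Aim2 (ENSMUSG00000037860, chr1:173350879-173466040, plus strand) makes the DNA sensor of an inflammasome that activates caspase-1. It went the other way: 77.0 CPM in vehicle tumour cells (6427 UMIs) and 69.5 CPM in RP-6306 tumour cells (5991 UMIs), a ratio of 0.902 (0.871 to 0.935). Ifi204 (ENSMUSG00000073489, chr1:173747293-173766943, minus strand) makes a DNA-binding protein of the same PYHIN family. It had 60.2 CPM (5023 UMIs) and 63.9 CPM (5512 UMIs), a ratio of 1.06 (1.02 to 1.10) that turned just below 1 under 1 of 12 other settings. Mouse PYHIN genes are close relatives, and how the counting treated reads shared among them was not given in the sources used here, so the Ifi204 level is uncertain.

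The 3 RNA sensors are helicases of the RIG-I family. Ddx58 (ENSMUSG00000040296, chr4:40203773-40239828, minus strand) had 15.9 CPM in vehicle tumour cells (1325 UMIs) and 20.5 CPM in RP-6306 tumour cells (1771 UMIs), a ratio of 1.29 (1.204 to 1.39). Ifih1 (ENSMUSG00000026896, chr2:62595798-62646255, minus strand), whose product binds long double-stranded RNA, had 8.96 CPM (748 UMIs) and 15.7 CPM (1357 UMIs), a ratio of 1.76 (1.61 to 1.92). The 3 RP-6306 cells with most Ifih1 held 54 of its 1357 UMIs, and leaving them out kept the ratio past 1.2-fold. Dhx58 (ENSMUSG00000017830, chr11:100694884-100704271, minus strand) makes LGP2, which has no signalling domain of its own and tunes the other helicases. Its level was 5.50 CPM (459 UMIs) and 7.07 CPM (610 UMIs), a ratio of 1.29 (1.14 to 1.46).

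Both adaptors were nearly level. Mavs (ENSMUSG00000037523, chr2:131234063-131248025, plus strand) had 12.7 CPM in vehicle tumour cells (1060 UMIs) and 12.6 CPM in RP-6306 tumour cells (1083 UMIs), and its ratio of 0.989 (0.908 to 1.08) turned above 1 under 5 of 12 other settings. Sting1 (ENSMUSG00000024349, chr18:35733679-35740554, minus strand) had 47.2 CPM (3939 UMIs) and 50.3 CPM (4335 UMIs), a ratio of 1.07 (1.02 to 1.11).

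Trex1 (ENSMUSG00000049734, chr9:109057933-109059734, minus strand), the exonuclease that clears cytosolic DNA, had no UMI in any cell of either library. In vehicle tumour cells 0 UMIs allow a level of up to 0.0359 CPM, and in RP-6306 tumour cells 0.0348 CPM, counting error only (3 UMIs of the class total). In GENCODE M21 the whole Trex1 gene lies inside Atrip, a gene on the same strand (chr9:109057933-109074124) with 881 and 860 UMIs in the vehicle and RP-6306 libraries. No other sensor gene overlapped a gene of the feature list on its own strand. Whether reads shared with Atrip were dropped was not tested, so Trex1 transcription cannot be read from these counts.

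**Figure D1:**
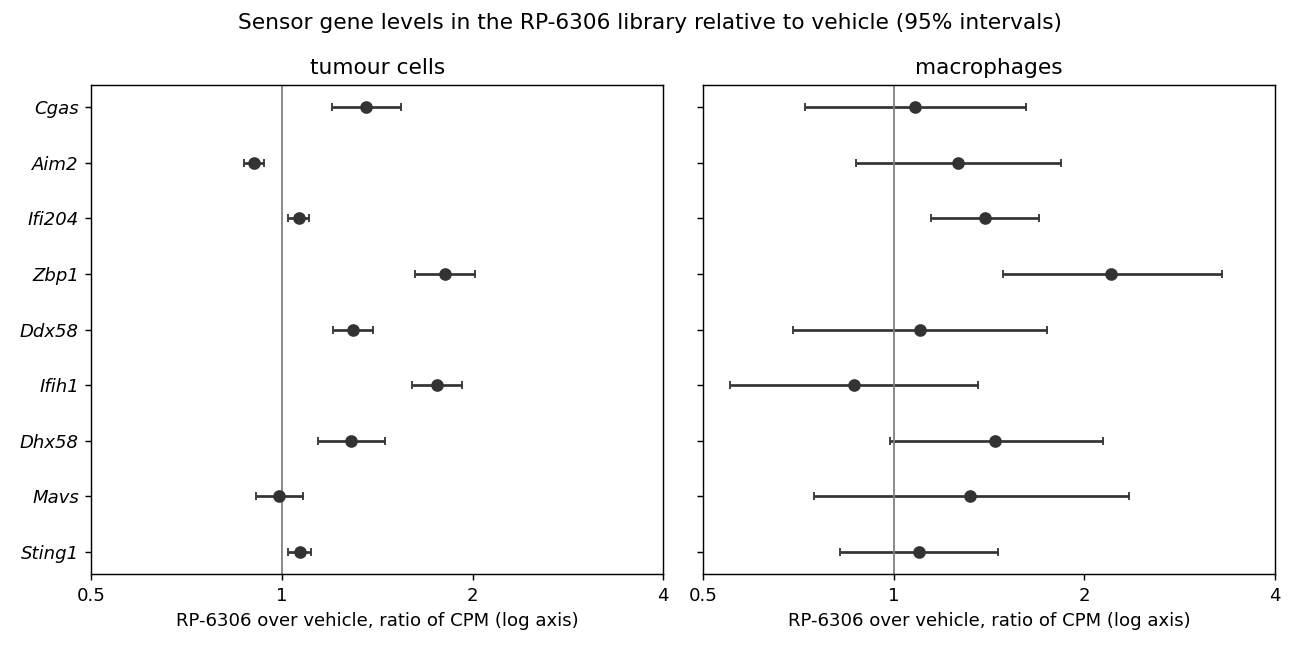
Ratio of the level in the RP-6306 library to that in the vehicle library (log axis) for the 9 measured sensor genes in tumour cells and macrophages; points are ratios of CPM and bars are 95% exact conditional intervals for counting error. In tumour cells Zbp1 (1.81) and Ifih1 (1.76) lie farthest above 1 and Aim2 (0.902) lies below it, and in macrophages Zbp1 (2.20) and Ifi204 (1.39) have intervals wholly above 1.

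Ddx58 and Ifih1 were the sensor genes whose start regions matched the interferon-stimulated response element, searched on both strands as GAAA, any 2 bases and GAAA again, in RefSeq windows (GRCm38.p6) that run from 250 bases before to 50 bases after each gene's start. Windows were found for 6 of the 10 genes: Cgas, Aim2, Ddx58, Ifih1, Mavs and Trex1. The element was present in 3.44% of all 32851 windows of that length. The gamma-activated site, searched on both strands as TTCNNNGAA, occurred in 8.30% of all windows and in none of the 6. Both matches lie just past the RefSeq start, in stretches at chr4:40239804-40239833 (minus strand) for Ddx58 and chr2:62646206-62646235 (minus strand) for Ifih1. These 30-base stretches are shown 5′ to 3′ with the match in capitals, which for Ddx58 is on the opposite strand, and below each the 250 bases before the start (chr4:40239826-40240075 and chr2:62646256-62646505), in which the element has no match.
Ddx58 around the match: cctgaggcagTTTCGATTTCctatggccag
Ddx58 before the start: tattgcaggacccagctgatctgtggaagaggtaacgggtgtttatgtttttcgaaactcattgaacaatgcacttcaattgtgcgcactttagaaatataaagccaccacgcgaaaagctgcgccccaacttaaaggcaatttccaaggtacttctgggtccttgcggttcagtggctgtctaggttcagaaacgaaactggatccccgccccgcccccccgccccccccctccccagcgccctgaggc
Ifih1 around the match: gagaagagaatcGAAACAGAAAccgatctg
Ifih1 before the start: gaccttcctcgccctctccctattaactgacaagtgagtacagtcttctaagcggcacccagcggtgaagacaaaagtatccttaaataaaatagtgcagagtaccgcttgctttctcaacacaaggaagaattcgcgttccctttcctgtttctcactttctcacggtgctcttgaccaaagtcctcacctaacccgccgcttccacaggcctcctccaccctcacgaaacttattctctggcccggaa

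Across cell classes, macrophages carried more of most sensors than tumour cells did, with Aim2 reversed. Cgas was 6.05 times as high in macrophages as in tumour cells in the vehicle library (4.43 to 8.09) and 4.81 times in the RP-6306 library (3.58 to 6.36). Dhx58 was 5.47 (3.97 to 7.37) and 6.15 (4.72 to 7.91) times as high, and Zbp1 3.94 (2.77 to 5.45) and 4.79 (3.79 to 6.00) times. The ratio was smaller for Ifi204, at 1.89 (1.62 to 2.20) and 2.48 (2.18 to 2.82), and for Sting1, at 1.29 (1.04 to 1.57) and 1.32 (1.08 to 1.61).

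For Ifih1 the distance between the classes narrowed, from 3.22 (2.33 to 4.33) in the vehicle library to 1.59 (1.12 to 2.18) in the RP-6306 library. Ddx58 was 1.54 (1.09 to 2.12) and 1.31 (0.940 to 1.78) times as high in macrophages. Mavs was at 1.18 (0.755 to 1.77) and 1.58 (1.07 to 2.26). Aim2 was lower in macrophages than in tumour cells, at 0.447 (0.337 to 0.583) and 0.626 (0.486 to 0.795) of the tumour level. Tumour transcripts at the shares given above would supply 24.1% of the macrophage Aim2 level in the vehicle library and 15.4% in the RP-6306 library, but at most 9.10% for any other sensor there.

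**Figure D2:**
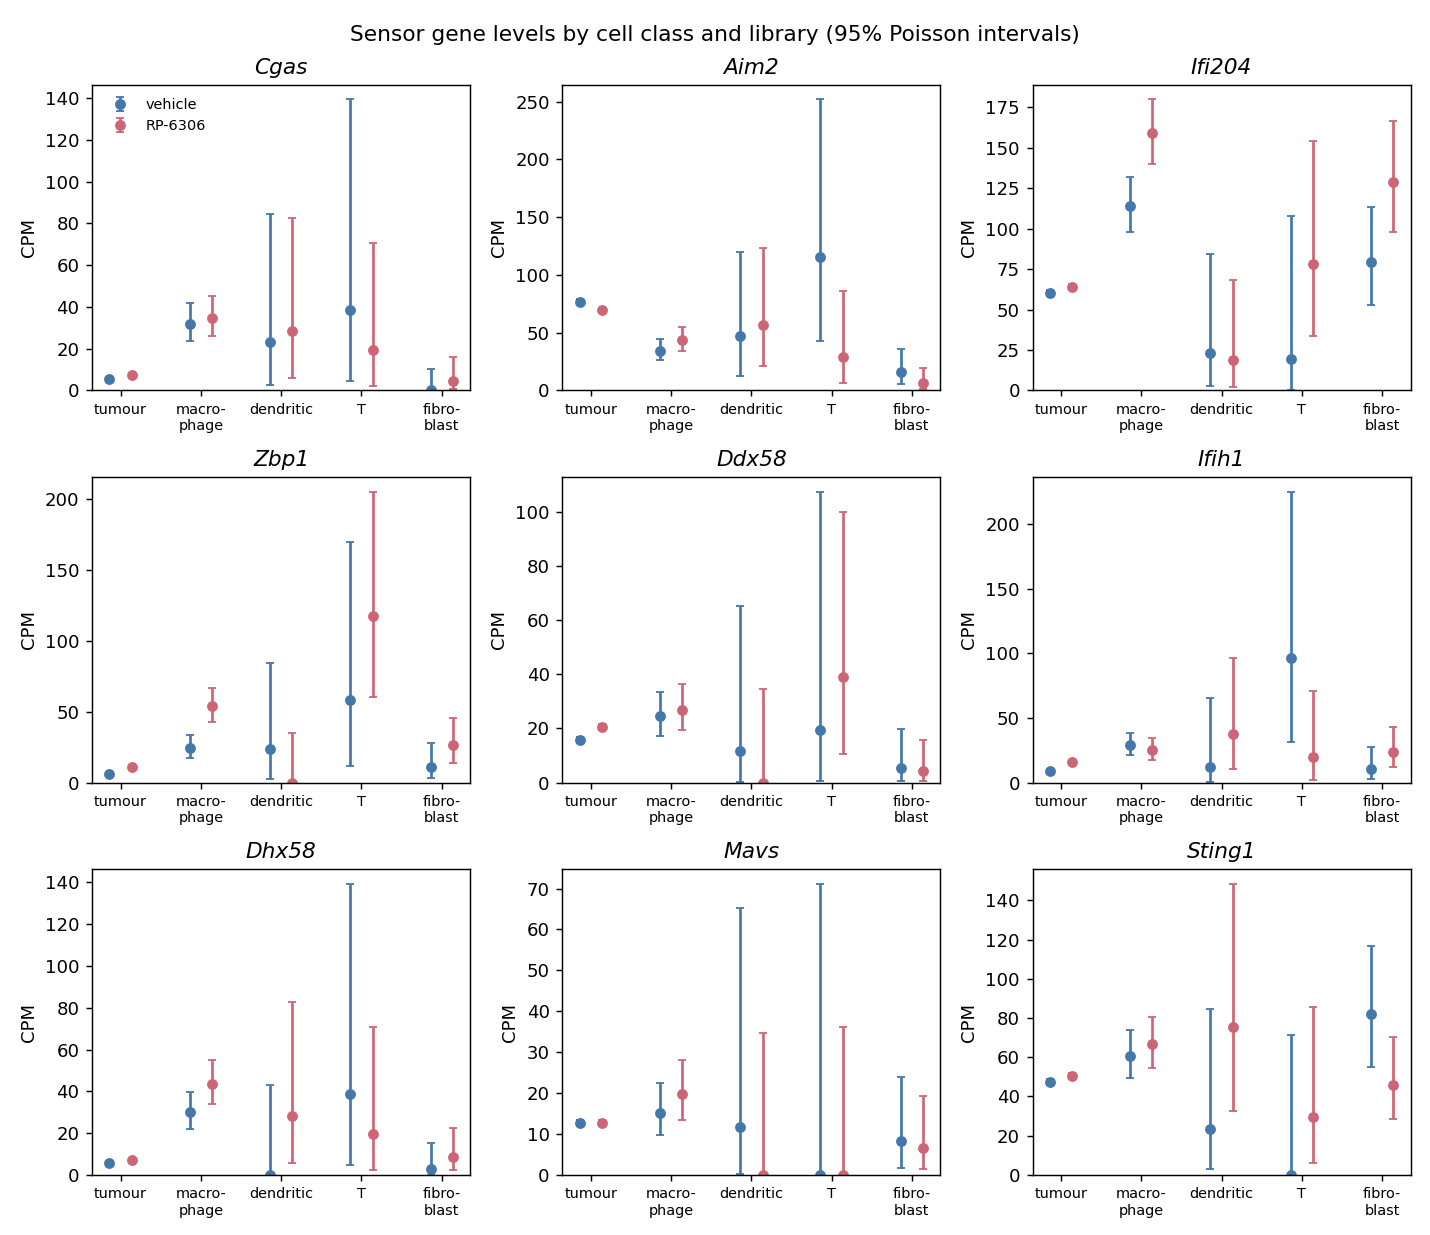
CPM of 9 sensor genes in 5 marker-gated cell classes of the vehicle (blue) and RP-6306 (red) libraries; points are levels and bars are 95% exact Poisson intervals. Tumour intervals are narrow, dendritic and T cell intervals are wide, and Aim2 is the sensor with a tumour level above the macrophage level in both libraries.

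In macrophages Zbp1 and Ifi204 stood higher in the RP-6306 library with intervals that leave out 1, and no sensor was past 1.2-fold lower. Of the 9 measured sensors 8 were higher, where 48.4% of all 9092 genes with at least 20 UMIs were. The ratio was at least 1.2 for Aim2, Ifi204, Zbp1, Dhx58 and Mavs, 5 of 9, where 19.7% of all genes were, and at most 1 over 1.2 for none, where 22.3% of all genes were. The median log2 ratio of the 9 was 0.34, against −0.01 over all genes.

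Zbp1 had 24.4 CPM in vehicle macrophages (39 UMIs) and 53.8 CPM in RP-6306 macrophages (84 UMIs), a ratio of 2.20 (1.49 to 3.31). Ifi204 had 114 CPM (182 UMIs) and 159 CPM (248 UMIs), a ratio of 1.39 (1.15 to 1.70). Dhx58 had 30.1 CPM (48 UMIs) and 43.5 CPM (68 UMIs), and its ratio of 1.45 (0.986 to 2.14) includes 1. The remaining sensors were not told apart between the libraries at this depth.

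Aim2 had 34.4 CPM in vehicle macrophages and 43.5 CPM in RP-6306 macrophages, a ratio of 1.26 (0.873 to 1.84). Mavs had 15.03 and 19.8 CPM, with a ratio of 1.32 (0.750 to 2.35) that rests on 24 and 31 UMIs. Ifih1, the sensor with the second largest ratio in tumour cells, had 28.8 CPM in vehicle and 25.0 CPM in RP-6306 macrophages, a ratio of 0.867 (0.551 to 1.36). Cgas had 31.9 and 34.6 CPM, a ratio of 1.08 (0.724 to 1.62). For Ddx58 the levels were 24.4 and 26.9 CPM, a ratio of 1.10 (0.695 to 1.75), and for Sting1 60.7 and 66.6 CPM, a ratio of 1.10 (0.823 to 1.46). The ratios of Cgas and Ddx58 each turned below 1 under 1 of 11 other settings. The 6 tumour transcripts summed to 90.2 CPM in vehicle and 76.2 CPM in RP-6306 macrophages. The 5 neutrophil markers summed to 20.7 and 33.3 CPM and the 13 dendritic markers to 316 and 276 CPM there, and their part in the ratios was not tested.

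In fibroblasts Ifi204 and Sting1 were the sensors with at least 20 UMIs, and they differed in opposite directions. Ifi204 had 79.1 CPM in vehicle fibroblasts (29 UMIs) and 129 CPM in RP-6306 fibroblasts (59 UMIs), a ratio of 1.63 (1.03 to 2.64). Sting1 had 81.8 CPM (30 UMIs) and 45.9 CPM (21 UMIs), a ratio of 0.561 (0.305 to 1.01). In this class 28% of all 5342 genes with at least 20 UMIs were at least 1.2 times higher and 30.7% at least 1.2 times lower, so 1 sensor in each direction is close to that background. Fibroblast Aim2 was 16.4 CPM in the vehicle library, where tumour transcripts at the shares given above would give 16.3 CPM. In the RP-6306 library it was 6.56 CPM, where they would give 18.6 CPM, more than was found. Fibroblast Aim2 was therefore not told apart from tumour transcripts. Zbp1 had 10.9 and 26.2 CPM (4 and 12 UMIs) and Ifih1 10.9 and 24.0 CPM (4 and 11 UMIs), too few for a ratio. Cgas had 0 UMIs in vehicle fibroblasts, which allows up to 8.18 CPM (3 UMIs), and 2 UMIs in RP-6306 fibroblasts.

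Dendritic and T cells were too few for ratios, with no sensor at 20 UMIs in either class, so no sensor could be called. Of the genes that did reach 20 UMIs, 28.8% of 1407 in dendritic cells and 34.7% of 1270 in T cells were at least 1.2 times higher. In dendritic cells the counts ran from 0 to 4 UMIs per sensor in the vehicle library and from 0 to 8 in the RP-6306 library, with Sting1 highest there at 75.4 CPM (32.5 to 148). In T cells Zbp1 had 57.9 CPM (11.9 to 169) in the vehicle library and 117 CPM (60.6 to 205) in the RP-6306 library. Both T cell values lie above the tumour level, at 9.33 (1.92 to 27.4) and 10.5 (5.39 to 18.4) times as high. They rest on 3 and 12 UMIs, and the vehicle value equals the limit for a count of 0 there. Ifih1 in T cells was 10.8 (3.49 to 25.2) times the tumour level in the vehicle library, from 5 UMIs. In the RP-6306 library it was 1.24 (0.150 to 4.50) times that level, from 2 UMIs. Aim2 in T cells was 116 CPM from 6 UMIs in the vehicle library and 29.3 CPM from 3 UMIs in the RP-6306 library. Mavs had 0 UMIs in T cells of both libraries, which allows up to 57.9 and 29.3 CPM (3 UMIs).

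Within tumour cells the sensors split by how they moved with interferon-stimulated genes. Cells were thinned to 2000 UMIs each, so that depth did not set the class, and sorted by the UMIs of 17 interferon-stimulated genes that hold none of the sensors (Isg15, Ifit1, Rsad2 and others). These classes are ranges of a count, not cell types. Cells with 3 or more such UMIs were 3.33% (2.93 to 3.77) of 7232 vehicle tumour cells and 8.98% (8.34 to 9.65) of 7487 RP-6306 tumour cells, and without thinning 27.1% and 44.3%. Cells with 0 were 70.8% (69.7 to 71.8) and 59.4% (58.3 to 60.6), and without thinning 27.4% and 19.0%.

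Zbp1 was 3.69 CPM in vehicle cells with 0 list UMIs and 48.8 CPM in those with 3 or more, 13.2 times as high (10.5 to 16.6), and in the RP-6306 library 5.49 and 52.2 CPM, 9.505 times (8.13 to 11.1). Dhx58 was 9.41 (7.23 to 12.2) times as high in the vehicle library and 9.72 (7.95 to 11.9) times in the RP-6306 library, and Ifih1 8.04 (6.54 to 9.82) and 8.48 (7.45 to 9.64) times. Ddx58 differed less, at 2.85 (2.29 to 3.50) and 2.96 (2.61 to 3.35), as did Ifi204, at 2.38 (2.12 to 2.67) and 2.56 (2.38 to 2.75). These 5 are the sensors named above as examples of interferon targets, and that list does not exclude the other sensors. The sensor genes and all lists were chosen with earlier results of these data known, so this match is not a test.

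The other sensors were flat or uneven over the same cells. Aim2 was at 0.910 (0.777 to 1.06) and 0.971 (0.881 to 1.07), and Sting1 at 1.16 (0.967 to 1.39) and 1.04 (0.929 to 1.16). Mavs was at 1.10 (0.756 to 1.55) in the vehicle library and 0.776 (0.600 to 0.991) in the RP-6306 library. Cgas was 2.17 (1.41 to 3.22) times as high in the vehicle library, from 27 UMIs in the top class, and 1.05 (0.778 to 1.40) times in the RP-6306 library. The 5 leukocyte transcripts summed to 16.4 CPM in vehicle cells with 0 list UMIs and 9.01 CPM in those with 3 or more, and to 14.6 and 15.3 CPM in the RP-6306 library. Median depth was 10388 and 8663 UMIs in those vehicle classes and 10281.5 and 9586.5 in those of the RP-6306 library.

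Compared between libraries at the same count of interferon-stimulated UMIs, the sensors differed from one another. Dhx58 was level, at 0.905 (0.737 to 1.11), 1.01 (0.819 to 1.26) and 0.934 (0.725 to 1.21) for 0, 1 to 2, and 3 or more list UMIs, where its ratio over all tumour cells was 1.29. Ifi204 was likewise between 0.959 and 1.03. Ifih1 stayed higher in the RP-6306 library in every class, at 1.28 (1.12 to 1.47), 1.36 (1.15 to 1.61) and 1.35 (1.12 to 1.65). Zbp1 was at 1.49 (1.24 to 1.78), 1.32 (1.09 to 1.60) and 1.07 (0.870 to 1.33), and Ddx58 at 1.15 (1.05 to 1.26), 1.19 (1.04 to 1.37) and 1.196 (0.956 to 1.51). Cgas was higher in the RP-6306 library among cells with 0 list UMIs, at 1.41 (1.21 to 1.65), and among cells with 1 to 2, at 1.40 (1.10 to 1.79). With 3 or more it was at 0.683 (0.424 to 1.13). Cells within a class can still differ between the libraries in interferon-stimulated UMIs, and the part of this was not tested.

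**Figure D3:**
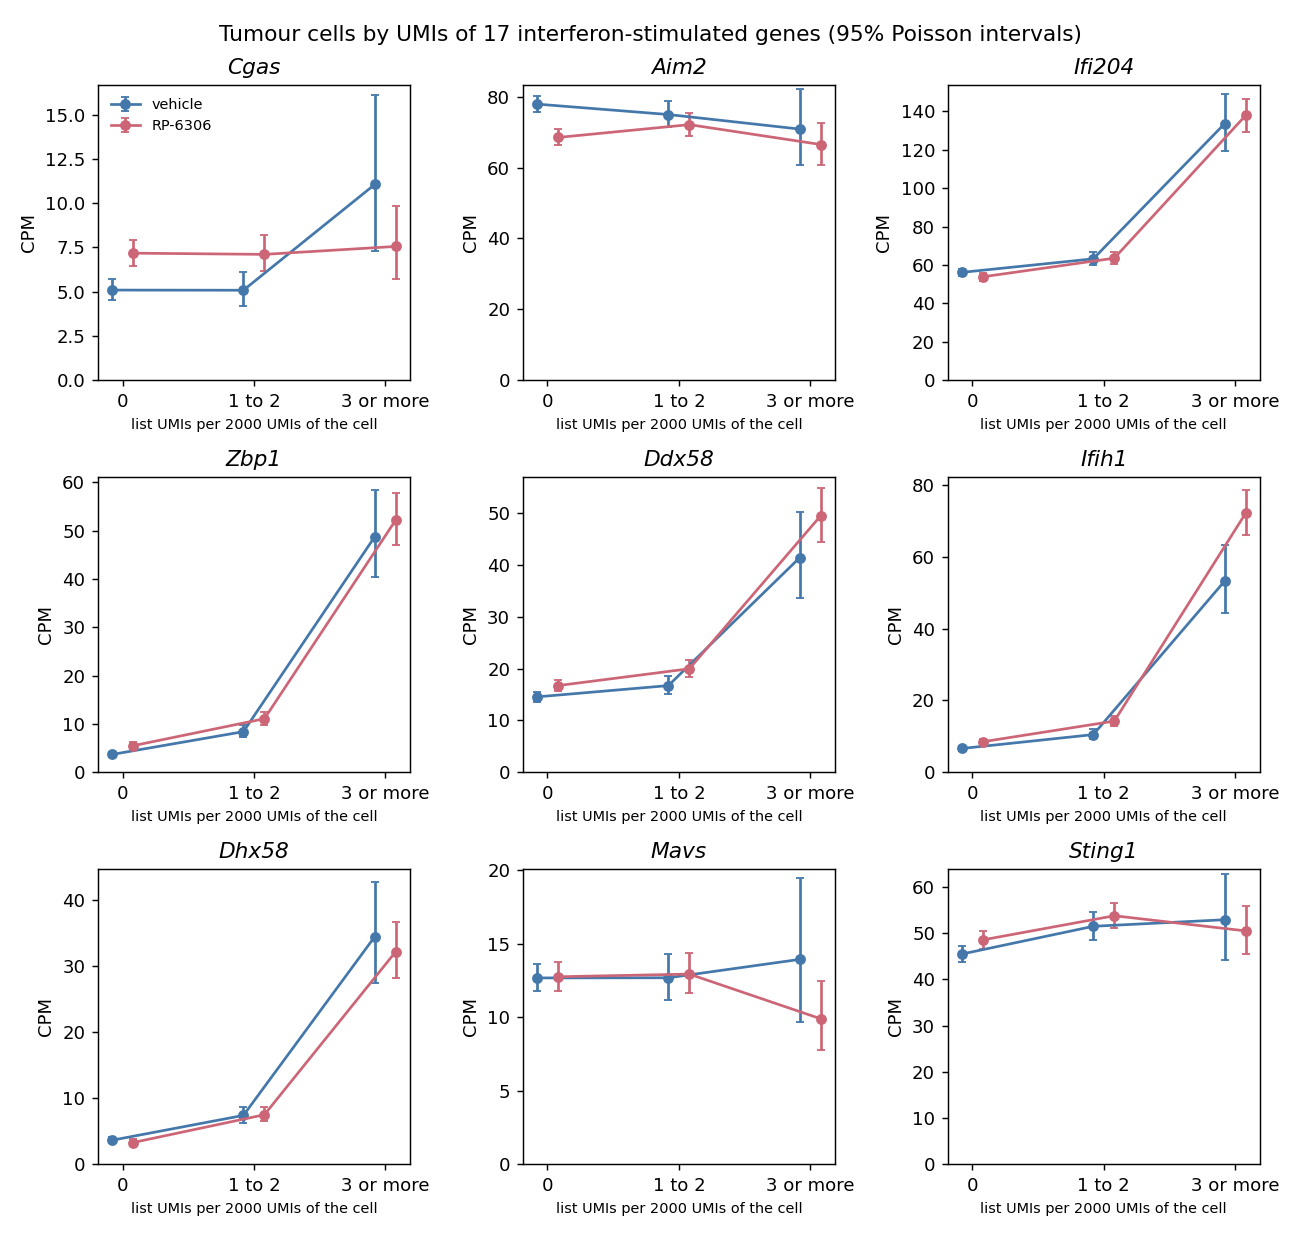
CPM of 9 sensor genes in tumour cells grouped by UMIs of 17 interferon-stimulated genes after thinning to 2000 UMIs per cell (horizontal axis), in the vehicle (blue) and RP-6306 (red) libraries; bars are 95% exact Poisson intervals. Zbp1, Ifih1, Dhx58, Ddx58 and Ifi204 are higher to the right in both libraries, and Aim2 and Sting1 are nearly flat.

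Macrophages showed the same 5 sensors higher in cells with 3 or more interferon-stimulated UMIs, which were 12.98% (9.31 to 17.4) of 285 vehicle and 24.8% (20.03 to 30.1) of 298 RP-6306 macrophages (28.4% and 43.3% without thinning). Zbp1 was 5.70 (2.45 to 13.5) and 6.91 (3.65 to 14.2) times as high there as in macrophages with 0, Ddx58 7.73 (3.56 to 17.5) and 5.27 (2.20 to 14.5) times, and Ifi204 4.81 (3.36 to 6.88) and 2.98 (2.11 to 4.27) times. Dhx58 was at 3.74 (1.67 to 8.17) and 5.97 (2.81 to 14.1), and Ifih1 at 5.80 (2.83 to 12.1) and 2.76 (1.21 to 6.70). For Cgas, Aim2, Mavs and Sting1 the intervals included 1 in both libraries. The top class held 37 vehicle and 74 RP-6306 macrophages. Compared between libraries at the same count of list UMIs, most macrophage ratios had intervals that included 1. With 3 or more list UMIs the exceptions were Zbp1, at 1.87 (1.02 to 3.65), and Ifih1, at 0.459 (0.227 to 0.925). With 1 to 2 the exception was Ifi204, at 1.52 (1.06 to 2.18).

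Cgas differed in both libraries with the cell cycle genes of tumour cells. With tumour cells sorted by UMIs of 15 mitotic genes (Top2a, Mki67, Cdk1 and others), again after thinning to 2000 UMIs, Cgas was 2.71 CPM in vehicle cells with 0 list UMIs, 6.20 CPM with 1 to 4 and 8.38 CPM with 5 or more. In the RP-6306 library the levels were 4.47, 9.17 and 10.4 CPM. Cells with 5 or more had 3.09 (2.42 to 3.97) and 2.33 (1.90 to 2.85) times the Cgas level of cells with 0. By 14 S phase genes (Mcm2, Pcna, Rrm2 and others) the ratio of the top class, 3 or more UMIs, to 0 was 3.07 (2.31 to 4.12) and 3.32 (2.58 to 4.32). The mitotic cells were also deeper, with a median of 14239 UMIs against 8990 in vehicle cells with 0 list UMIs.

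Mavs was slightly higher in the vehicle mitotic class, at 1.26 (1.09 to 1.46), and at 1.13 (0.967 to 1.31) in the RP-6306 library. The 5 sensors that were higher with interferon-stimulated genes ran the other way. Zbp1 in cells with 5 or more mitotic UMIs was at 0.514 (0.401 to 0.654) of the level in cells with 0 in the vehicle library and 0.464 (0.382 to 0.562) in the RP-6306 library, and Dhx58 at 0.665 (0.521 to 0.845) and 0.536 (0.421 to 0.677). Ifih1 was at 0.719 (0.596 to 0.863) and 0.632 (0.543 to 0.734), Ifi204 at 0.721 (0.671 to 0.773) and 0.639 (0.594 to 0.687), and Ddx58 at 0.823 (0.718 to 0.942) and 0.607 (0.532 to 0.692). Aim2 stayed at 1.06 in both libraries.

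The RP-6306 library had fewer tumour cells in the top mitotic class, 16.6% (15.8 to 17.5) against 20.3% (19.4 to 21.3), and without thinning 32.2% against 36.0%. Cgas was higher in the RP-6306 library within each mitotic class, at 1.65 (1.28 to 2.12), 1.48 (1.19 to 1.83) and 1.24 (1.01 to 1.52) for 0, 1 to 4, and 5 or more UMIs. Zbp1 was at 1.89 (1.63 to 2.18), 1.54 (1.25 to 1.91) and 1.70 (1.29 to 2.25), and Ifih1 at 1.77 (1.56 to 2.01), 1.76 (1.48 to 2.11) and 1.56 (1.27 to 1.91). Ddx58 was 1.43 (1.30 to 1.59) times as high among cells with 0 mitotic UMIs and 1.06 (0.902 to 1.24) times among those with 5 or more, and Dhx58 1.33 (1.12 to 1.57) and 1.07 (0.794 to 1.43) times.

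**Figure D4:**
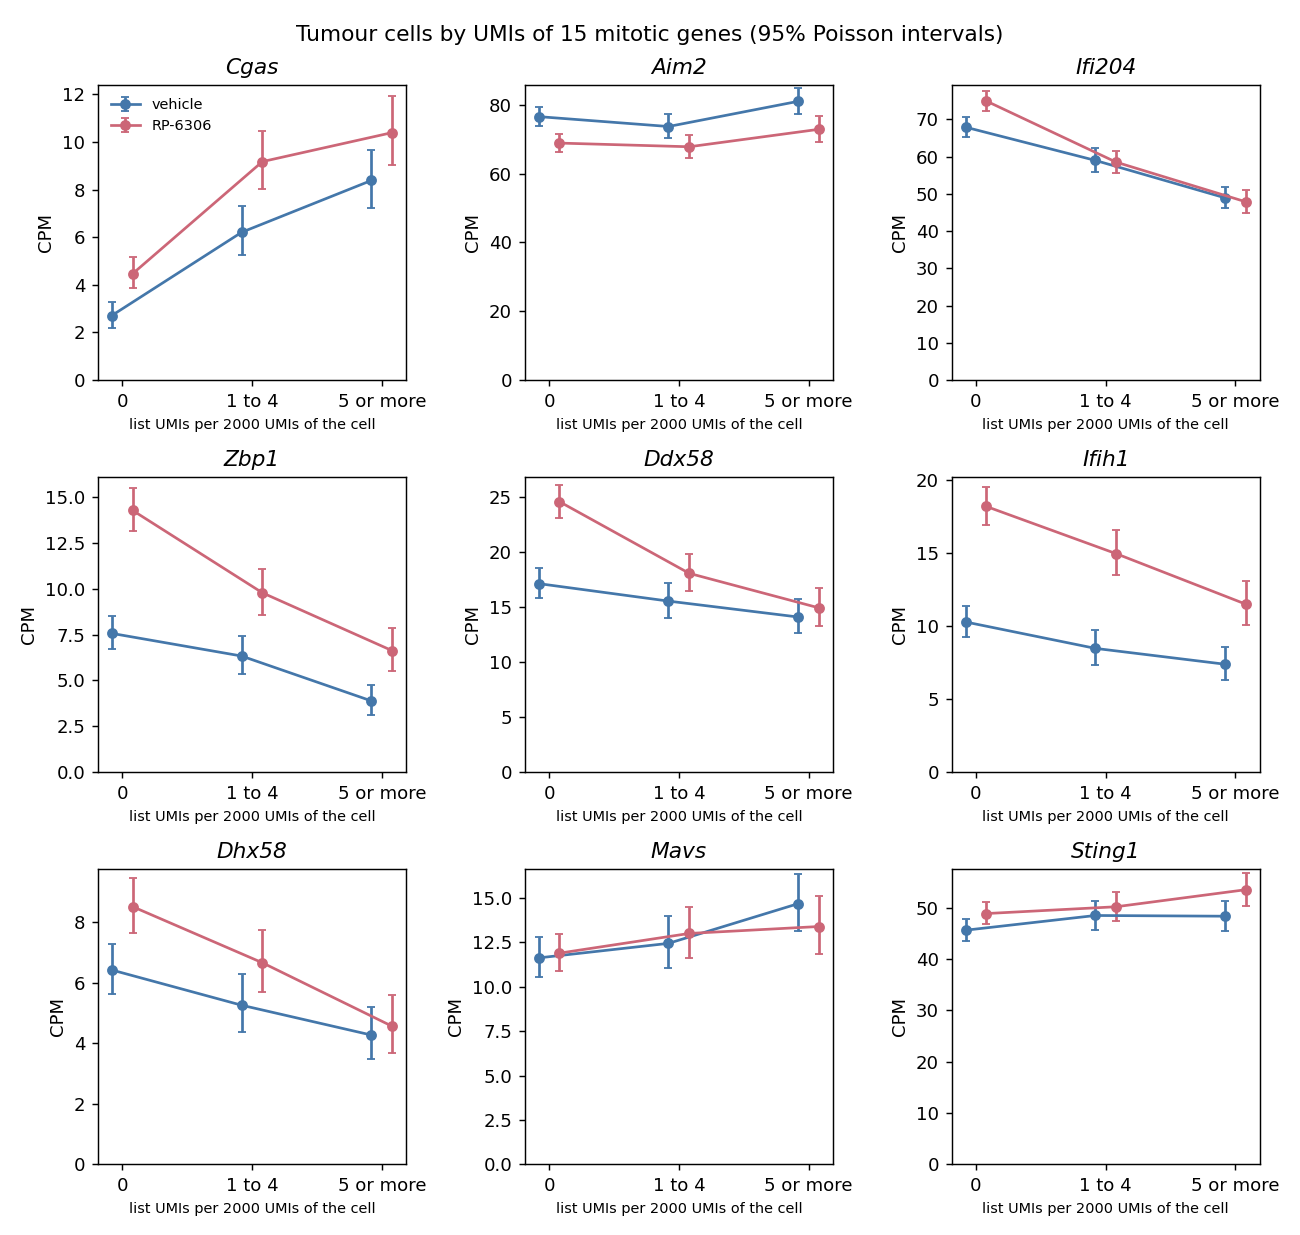
CPM of 9 sensor genes in tumour cells grouped by UMIs of 15 mitotic genes after thinning to 2000 UMIs per cell (horizontal axis), in the vehicle (blue) and RP-6306 (red) libraries; bars are 95% exact Poisson intervals. Cgas is higher to the right in both libraries, and Zbp1, Ddx58, Ifih1, Dhx58 and Ifi204 are lower.

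Of the genes around the sensors, 6 lists were read in the same way. Among 16 genes downstream of STING and MAVS, all with at least 20 UMIs in tumour cells, 10 were higher and 6 lower in the RP-6306 library, 3 were at least 1.2 times higher and 0 lower by that much. Of all genes measured in tumour cells 45.2% were higher, 13.9% at least 1.2 times higher and 13.9% lower by that much, so these counts lie near the background in the higher direction. Ifnb1, the type I interferon gene these routes switch on, had 5 UMIs in vehicle and 45 in RP-6306 tumour cells, a ratio of 8.71 (3.47 to 28.1). Irf7, an interferon-inducible factor that drives interferon genes, had 5.33 CPM in vehicle and 9.09 CPM in RP-6306 tumour cells, a ratio of 1.71 (1.52 to 1.92). Ikbke, a kinase that phosphorylates IRF3 and IRF7, had 2.67 and 3.37 CPM, a ratio of 1.26 (1.06 to 1.51). At the other end Tbkbp1, a binding partner of the kinase TBK1, had 20.7 and 17.6 CPM, a ratio of 0.851 (0.794 to 0.912). The list's median log2 ratio was 0.03.

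All 9 genes that regulate RIG-I-like receptors had a ratio above 1 in tumour cells, where 45.2% of all genes did. At least 1.2 times higher were 4 of them, where 13.9% of all genes were, and the list's median log2 ratio was 0.08. Nlrx1, a mitochondrial protein that dampens MAVS signalling, had 0.803 CPM in vehicle and 1.17 CPM in RP-6306 tumour cells, a ratio of 1.46 (1.06 to 2.02). Trim25, a ubiquitin ligase for RIG-I, had 36.5 and 46.4 CPM, a ratio of 1.27 (1.21 to 1.33), and Rnf125, a ligase that marks RIG-I for degradation, had 23.9 and 29.7 CPM, a ratio of 1.24 (1.17 to 1.32). The other gene past 1.2-fold, named after its values were seen, was Zc3hav1 at 1.22 (1.17 to 1.28). At the low end Pcbp2 was at 1.01 (1.002 to 1.02) and Riok3 at 1.01 (0.979 to 1.04).

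Of the other PYHIN genes, 7 of 10 reached 20 UMIs in tumour cells, 6 were higher and 4 were at least 1.2 times higher, where 13.9% of all genes were. Ifi207 had 10.1 CPM in vehicle and 13.5 CPM in RP-6306 tumour cells, a ratio of 1.34 (1.23 to 1.47), and Ifi203 had 26.8 and 35.2 CPM, a ratio of 1.31 (1.24 to 1.39). The others past 1.2-fold were Ifi209 at 1.27 (0.972 to 1.67) and, named after its values were seen, Ifi206 with 3 and 18 UMIs. Of 12 partners of AIM2 and ZBP1, 8 were higher and 4 lower, 1 past 1.2-fold higher (Il1b, at 1.2004) and 2 lower, close to the 13.9% of all genes in each direction. The latter were Pycard, the inflammasome adaptor, with 4.55 and 3.56 CPM and a ratio of 0.782 (0.671 to 0.912), and Il18, a cytokine that caspase-1 matures, with 21.9 and 17.04 CPM and a ratio of 0.776 (0.724 to 0.832). Il1b had 4.14 CPM in vehicle and 4.98 CPM in RP-6306 tumour cells, against 2091 and 2405 CPM in macrophages. Leukocyte transcripts stood at 0.221% and 0.186% of the macrophage level in tumour cells. Their part in the tumour level of Il1b was not tested.

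Genes that clear or edit nucleic acid were split much as all genes were (45.2% higher and 13.9% past 1.2-fold higher), with 5 of 10 higher and 5 lower. The 1 gene past 1.2-fold higher was Dnase1l3, named after its 9 and 25 UMIs were seen. Adar, the RNA editing enzyme, had 12.8 CPM in vehicle and 14.1 CPM in RP-6306 tumour cells, a ratio of 1.10 (1.01 to 1.197), and Rnaseh2a, a subunit of RNase H2, had 31.8 and 27.3 CPM, a ratio of 0.860 (0.813 to 0.909). Among other nucleic acid sensors 4 of 9 measured genes were higher and 5 lower, also near the share over all genes. Tlr3, the endosomal sensor of double-stranded RNA, had 2.52 and 3.18 CPM, a ratio of 1.26 (1.05 to 1.52), and was the 1 gene of that list past 1.2-fold, where 13.9% of all genes were.

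In macrophages all 8 other PYHIN genes with at least 20 UMIs had a ratio above 1, where 48.4% of all genes did, and 7 were at least 1.2 times higher, where 19.7% of all genes were. Ifi213 had 19 UMIs in vehicle and 40 in RP-6306 macrophages, a ratio of 2.15 (1.22 to 3.93), Mndal had 71.4 and 131 CPM, a ratio of 1.83 (1.45 to 2.32), and Ifi209 had 55.1 and 94.7 CPM, a ratio of 1.72 (1.31 to 2.26). These genes are close relatives of Ifi204 and are not independent counts of it where reads are shared. Eif2ak2, which makes the RNA-activated kinase PKR, had 20.7 and 36.5 CPM, a ratio of 1.77 (1.13 to 2.80). The 5 other lists were mixed in direction in macrophages, with 9 of 15 downstream genes, 4 of 8 receptor regulators, 5 of 10 clearance genes, 7 of 12 partners and 5 of 11 other sensors higher. In that order, 6, 1, 2, 2 and 4 genes were at least 1.2 times higher, where 19.7% of all genes were. At least 1.2 times lower were 2, 2, 1, 2 and 0 genes, where 22.3% of all genes were. Nfkb1, an NF-kappaB subunit, was among the lowest, with 97.1 CPM in vehicle and 75.5 CPM in RP-6306 macrophages and a ratio of 0.778 (0.607 to 0.995).

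The 3 genes with the pattern most like each sensor were taken by Pearson's r of log2(CPM + 1) over the 10 sums of 5 classes and 2 libraries, among 14148 genes with at least 100 UMIs. For the DNA sensors these were, with r in brackets, Gsap (0.976), Ubl3 (0.964) and Stk10 (0.959) for Cgas, Nasp (0.974), Ipmk (0.953) and Prpf4 (0.941) for Aim2, Slc27a4 (0.967), Vcan (0.967) and Clcn7 (0.963) for Ifi204 and Rnf213 (0.959), Gm37906 (0.956) and Zfp398 (0.954) for Zbp1. For the RNA sensors they were Rpa2 (0.957), Mphosph10 (0.956) and Secisbp2l (0.955) for Ddx58, Fcho2 (0.942), Map4k2 (0.929) and Cybc1 (0.910) for Ifih1 and Slc30a1 (0.928), Eif1ad (0.922) and Btbd19 (0.921) for Dhx58. For the adaptors they were Cinp (0.994), Chek2 (0.988) and Utp6 (0.984) for Mavs and Riox1 (0.986), Marchf5 (0.985) and Ptpn12 (0.984) for Sting1. These values are a description across sums that share 2 libraries, and the dendritic and T cell sums rest on few UMIs.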

How the data were processed

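Droplet single-cell RNA sequencing (10x 3′ v2, per the labels' protocols) of 1 vehicle and 1 RP-6306 library was analysed from the matrices of counts the authors deposited, which are raw UMIs per gene and barcode. The headers of the matrices give Cell Ranger 7.1.0, whereas version 2.1.1 and mm10 are listed per the submitters' processing notes, and this was not resolved. The sensor genes and all lists were chosen with earlier results of these data known, and the gate limits were set with marker counts in view.

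Cells with at least 500 genes and at most 15% mitochondrial UMIs were kept (132 and 188 barcodes fell under the first limit in the vehicle and RP-6306 libraries, 14 and 16 over the second). A cell joined a class with enough of its markers detected: 2 of 5 for tumour, 4 of 11 for macrophages, 3 of 13 for dendritic cells, 3 of 12 for T cells and 6 of 10 for fibroblasts. Other classes could hold at most 3 Krt8 and Krt18 UMIs, and tumour cells had to stay at least 2 markers short of every other gate. Cells that met 2 gates (91 and 120) were left out, and these stood in for doublets: Scrublet's own threshold called 0 and 1 cells, so its highest 8% was used only as an alternative. Raw UMIs were summed per class and library and scaled to CPM. Intervals are exact (Poisson for levels, Clopper-Pearson for shares, conditional for ratios) and cover counting error only, so no test was made. All 10 sensor genes are named; of each pathway list at most the 3 highest and 2 lowest ratios among genes with at least 50 UMIs may be, and Mnda and Pyhin1 were not among the features. Positions are from GENCODE M21. Python 3.11.15, scipy 1.17.1, scanpy 1.11.5 and edgeR 4.0.16 (TMM factors only, R 4.3.3) were used, and the interval and gate code was tested on simulated data. Alternatives changed the scaling, level, pseudocount, UMI minimum, cell filters, gate, doublets and thinning.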

Additional observations from a re-analysis of the deposited data

Results flagged for a closer look

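For 2 sensors the ratio of RP-6306 to vehicle differed between tumour cells and macrophages beyond counting error. The tumour ratio of Ifih1 was 2.03 times its macrophage ratio (1.28 to 3.22), and that of Ifi204 was 0.763 of its macrophage ratio (0.624 to 0.931). For Sting1 the fibroblast ratio stood apart: the tumour ratio was 1.90 times (1.05 to 3.50) and the macrophage ratio 1.95 times (1.004 to 3.85) the fibroblast ratio. These intervals cover counting error only, were read for 13 combinations of a gene and a pair of classes without adjustment, and compare 1 library with 1 library.

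Endothelial cells, which the comparisons did not use, carried sensor transcripts above the limit that a count of 0 allows. In 28 vehicle cells Ifi204 was at 37.0 CPM, Ddx58 at 50.9 CPM, Ifih1 at 41.7 CPM and Sting1 at 88.0 CPM, from 8, 11, 9 and 19 UMIs, where 3 UMIs stand for 13.9 CPM. In 17 RP-6306 cells Sting1 was at 88.8 CPM from 10 UMIs, where 3 UMIs stand for 26.6 CPM. The others named were not above that limit beyond counting error in the RP-6306 library: Ifi204 was at 17.8 CPM from 2 UMIs, Ddx58 at 53.3 CPM from 6 UMIs, and Ifih1 had 0 UMIs.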

How the results depend on the processing

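The number of sensors past 1.2-fold in tumour cells was 5, and stayed 5 under 10 of 12 alternatives. It was 3 with the stricter gate, where Cgas and Dhx58 no longer passed, and 3 when levels were shares of cells with a UMI after thinning to 2000 UMIs, where Ddx58 (log2 ratio 0.12) and Dhx58 (0.06) no longer passed; the cause was not tested. In macrophages the number was 5 or 6 under all 11. Dropping the UMI minimum could not change the number in either class, because Trex1 had no UMI and every other sensor already met the minimum. Of 207 log2 ratios of single sensors under alternatives, 195 stayed inside the main counting interval and 12 moved outside it; the log2 ratio in tumour cells ran from 0.18 to 0.58 for Cgas, 0.66 to 1.04 for Zbp1, 0.12 to 0.42 for Ddx58, 0.45 to 0.84 for Ifih1, 0.06 to 0.42 for Dhx58 and −0.20 to −0.12 for Aim2. Of 100 levels, 13 left their interval under the stricter gate. TMM scaling shifted log2 ratios by 0.02 in tumour cells and in macrophages. Counting unassigned keratin-low cells as tumour cells, leaving out shared barcodes and thinning to 1000 UMIs were chosen after seeing the data. No paired analysis was possible because each group has 1 library. Dendritic and T cells held too few sensor UMIs for ratios.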
